A study of Homo sapiens with 2 samples.

Results

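JUN, JUNB, JUND, JDP2, FOS, FOSB, FOSL2, ATF3 and MAFF, 9 genes whose proteins can share an AP-1 type dimer with FOSL1 or take its place in one, were followed in UACC62 cells, an established human melanoma line. They were taken by gene symbol, with every probe set that the probe-to-gene table assigned to them, and were 9 of 14884 named genes and 11 of 53427 probe sets. A culture given a non-targeting control siRNA was set against a culture given a FOSL1-specific siRNA, and both shared the line, the growth medium and the harvest on day 3. Each condition was measured on 1 Affymetrix whole-transcript array, so no test was run and no replicate error could be given; the precision is limited by this number of arrays. The sources used here do not say whether the siRNA was pooled, and effects of the siRNA other than on FOSL1 cannot be told apart from those of FOSL1 depletion.

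AP-1 is not a single protein but a set of dimers held together by leucine zippers, with an adjoining basic region that contacts DNA. JUN proteins pair with each other and, more stably, with FOS proteins, whereas FOS, FOSB, FOSL1 and FOSL2 do not bind DNA well without a JUN partner. JDP2 and ATF3 pair with JUN proteins and often repress, and MAFF belongs to the small MAF proteins, which lack an activation domain. Many of these genes are induced within minutes by growth factors or stress, and in melanoma the BRAF and ERK pathway keeps FOSL1 high.

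The values were deposited log2 intensities, and a difference is the log2 value with FOSL1 siRNA minus that with control siRNA, so a negative difference is a lower level with FOSL1 siRNA. FOSL1 itself had log2 values of 11.90 (control siRNA) and 10.38 (FOSL1 siRNA), a difference of -1.53; pairs of values below are in this order. The mean of the 2 arrays had to reach 8.02, the median of named genes, for a gene to pass the filter on dim genes, which 7442 did. Of the 15 melanocyte and melanoma markers with a named probe set, 11 passed it, among them SOX10, MITF and MLANA, whereas PMEL and TYRP1 did not. At 1.2-fold, 4 of the 11 were lower and 2 were higher with FOSL1 siRNA, against 9.78% and 11.1% of all genes past the filter. MLPH, an adaptor for melanosome transport, had 8.33 and 7.92, a difference of -0.41. Its value with FOSL1 siRNA lay under 8.02, so it passed the filter through its control value. The calcium-binding protein S100A1 had -0.40 and TYR had -0.34. Lineage factors lay on both sides, with MITF at 0.36 and PAX3 at 0.34 but SOX10 at -0.30. The part of these markers in the results was not tested. None of 9 epithelial markers and 2 of 6 fibroblast, endothelial and leukocyte markers passed. The latter were CD68, with log2 values of 10.79 and 10.17, and LUM, with 11.05 and 11.53; their part was not tested either. From total RNA of a culture, fewer cells of a kind and less RNA per cell cannot be told apart.

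With FOSL1 siRNA, JUN, JDP2 and JUND had the lowest differences among the 9 genes, and no member was higher by its brightest probe set. Of the 9 genes, 8 passed the filter and ATF3 did not. All 8 lay below 0, as did 50.1% of all genes past the filter, and their median difference was -0.17 against -0.00 over those genes. At least 1.2-fold lower were 3 of the 8, JUN, JDP2 and JUND, against 9.78% of genes past the filter, and 0 of the 8 were at least 1.2-fold higher, against 11.1%. Of the 3 lower genes, JDP2 had a value under 8.02 with FOSL1 siRNA and entered the count through its control value. JUND was no longer 1.2-fold lower with the trend on gene span removed, as described below. At 1.5-fold none of the 8 was lower or higher, where 0.766% and 1.13% of genes were. Without the filter all 9 lay below 0, against 54.5% of named genes. With the filter at the 75th percentile, JUN, JUNB and FOS passed, and all 3 lay below 0, against 48.9% of genes past it; 1 of them, JUN, was at least 1.2-fold lower, against 6.75%. As a scale for these sizes, differences read by the 2 brightest probe sets of a gene had an SD of 0.169 over 213 genes. That spread lies within 1 pair of arrays and leaves out variation between cultures.

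**Figure D1:**
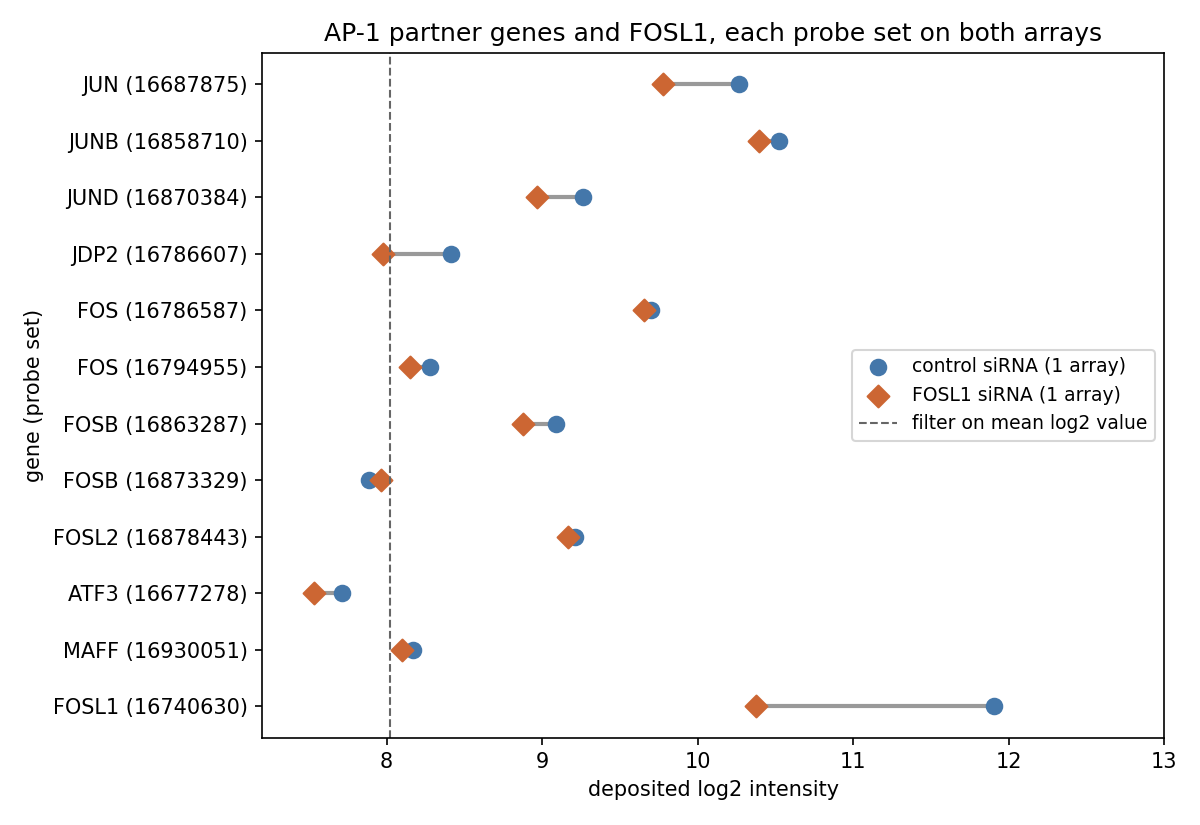
Deposited log2 intensity (horizontal axis) of each probe set of the 9 genes and of FOSL1, with the control siRNA array as circles, the FOSL1 siRNA array as diamonds and the filter at 8.02 as a dashed line. The diamond lies left of the circle for every probe set except the dimmer one of FOSB, and the widest gap after FOSL1 is that of JUN.

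The start regions of the members are shown because JUN is a textbook case of a gene whose own promoter is bound by JUN dimers, at an element that resembles the AP-1 and CRE motifs. RefSeq start windows of build GRCh38.p14, from 250 bases before to 50 bases after a start, were at hand for all 9 genes, 13 windows in all. They were searched on both strands for TGACTCA (the AP-1 motif), TGACGTCA (the cyclic AMP response element, CRE), TGACATCA (the element of the JUN promoter) and the CArG box bound by SRF. TGACATCA stood in the window of JUN and in the upstream of 2 windows of ATF3, and in 2.61% of 35116 windows of all genes. TGACGTCA stood in the window of JUND and in the upstream of 2 windows of MAFF, and in 1.85% of all windows. TGACTCA stood in the window of FOSL2 alone among the members, just after the start, and in 4.95% of all windows. The CArG box stood in no member's window and in 1.29% of all windows. No searched motif stood in the windows of JUNB, FOS, FOSB or in the 3 windows of JDP2, which says only that these letters are not in these windows. Windows of 1 gene can overlap, and whether any factor binds these letters was not measured here. The sequences run 5′ to 3′ on the gene's strand with the motif in capitals, and all but the last are the 250 bases before the start.
JUN (chr1:58784048-58784297, minus strand, motif from -67 to -60): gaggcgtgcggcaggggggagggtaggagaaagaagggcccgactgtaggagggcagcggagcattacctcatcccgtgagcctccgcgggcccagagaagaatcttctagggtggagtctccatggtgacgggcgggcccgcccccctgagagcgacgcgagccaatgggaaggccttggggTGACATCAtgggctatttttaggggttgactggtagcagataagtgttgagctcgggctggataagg
ATF3 (chr1:212565157-212565406, plus strand, motif from -123 to -116): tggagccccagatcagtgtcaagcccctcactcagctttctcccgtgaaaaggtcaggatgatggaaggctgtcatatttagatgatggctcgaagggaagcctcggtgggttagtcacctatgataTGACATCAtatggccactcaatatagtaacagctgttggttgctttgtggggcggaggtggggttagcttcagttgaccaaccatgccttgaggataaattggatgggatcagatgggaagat
JUND (chr19:18281623-18281872, minus strand, motif from -200 to -193): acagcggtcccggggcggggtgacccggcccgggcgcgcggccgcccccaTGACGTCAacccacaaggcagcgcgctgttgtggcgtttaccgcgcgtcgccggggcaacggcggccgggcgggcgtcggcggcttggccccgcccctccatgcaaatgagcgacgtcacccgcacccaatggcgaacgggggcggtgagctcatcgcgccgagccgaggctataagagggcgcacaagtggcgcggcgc
MAFF (chr22:38201744-38201993, plus strand, motif from -54 to -47): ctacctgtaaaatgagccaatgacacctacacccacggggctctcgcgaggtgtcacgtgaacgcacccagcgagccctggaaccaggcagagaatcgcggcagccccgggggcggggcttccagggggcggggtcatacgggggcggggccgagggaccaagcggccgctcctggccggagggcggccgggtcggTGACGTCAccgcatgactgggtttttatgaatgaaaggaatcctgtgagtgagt
FOSL2 (chr2:28392852-28392878, plus strand, motif from 5 to 11): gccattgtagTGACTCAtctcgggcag

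Of the JUN proteins, which FOSL1 needs as partners to bind DNA, JUN differed most. JUN (Entrez gene 3725, chromosome 1, probe set 16687875) had log2 values of 10.26 under control siRNA and 9.78 under FOSL1 siRNA. The difference of -0.48, a level 1.40-fold lower, was 2.86 times the SD between probe sets of a gene. It ranked 126 from the lowest of the 7442 genes, with 1.68% of them lower. JUND (Entrez gene 3727, chromosome 19), the JUN protein that is least dependent on stimulation, had 9.26 and 8.97, a difference of -0.29 or 1.23-fold, with 7.58% of genes lower. JUNB (Entrez gene 3726, chromosome 19), a weaker activator than JUN that can oppose it, had 10.52 and 10.39, a difference of -0.13, with 25.2% of genes lower. The difference of JUNB was under the SD between probe sets, and each of the 3 genes was read by a single probe set. Of the promoters printed above, that of JUN holds TGACATCA and that of JUND holds TGACGTCA. JUNB held none of the motifs in its window, and neither did JDP2 in its 3 windows. Whether a motif goes with the size of a difference was not tested.

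JDP2 (Entrez gene 122953, chromosome 14, probe set 16786607), which represses AP-1 by pairing with JUN proteins and recruiting histone deacetylases, had log2 values of 8.41 under control siRNA and 7.98 under FOSL1 siRNA. Its difference of -0.44, a level 1.35-fold lower, was 2.58 times the SD between probe sets, and 2.34% of genes were lower. The value with FOSL1 siRNA lay under 8.02, so the gene passed the filter through its control value. ATF3 (Entrez gene 467, chromosome 1), a stress-induced repressor of the same branch, was dim on both arrays, with 7.71 and 7.53 and a difference of -0.18. The difference of ATF3 was 1.07 times the SD between probe sets. Its upstream window holds TGACATCA, as the promoter of JUN does.

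Of the FOS proteins, which take the same place in the dimer as FOSL1, FOSL2 and FOS differed least. FOSL2 (Entrez gene 2355, chromosome 2), the closest relative of FOSL1 and like it without the strong activation domain of FOS, had 9.21 and 9.17, a difference of -0.04. FOS (Entrez gene 2353, chromosome 14), the founding member, had 9.70 and 9.66 on its brighter probe set, 16786587, also a difference of -0.04. Both lay near the middle of all genes, with 41.7% of genes lower than FOSL2 and 41.5% lower than FOS. As deposited, neither the 1 probe set of FOSL2 nor either of the 2 of FOS was higher with FOSL1 siRNA. With the trend on gene span removed, as described below, FOS was at 0.05. Whether either gene takes the place of FOSL1 was not tested. The dimmer probe set of FOS, 16794955, had 8.28 and 8.15, a difference of -0.13.

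FOSB (Entrez gene 2354, chromosome 19) was read in opposite directions by its 2 probe sets. The brighter, 16863287, had log2 values of 9.09 and 8.87, a difference of -0.22, and the dimmer, 16873329, had 7.89 and 7.97, a difference of 0.08. The sources used here do not name the strand that each probe set reads. FOS and FOSB both lie on the plus strand, and so did the genes of 18 of 20 and 14 of 14 named probe sets numbered next to their brighter sets. Next to the dimmer sets, the genes of 17 of 19 named probe sets for FOS and 16 of 17 for FOSB lay on the minus strand, counting up to 10 on each side with a strand in the RefSeq table. Without the strand, transcripts of the opposite strand cannot be told apart from those of FOS or FOSB on the dimmer sets.

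MAFF (Entrez gene 23764, chromosome 22), a small MAF protein inducible by inflammatory signals, had 8.17 and 8.10, a difference of -0.07. It lay close to the filter on both arrays, and 36.7% of genes were lower. The CRE printed above at its start was shared with JUND.

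**Figure D2:**
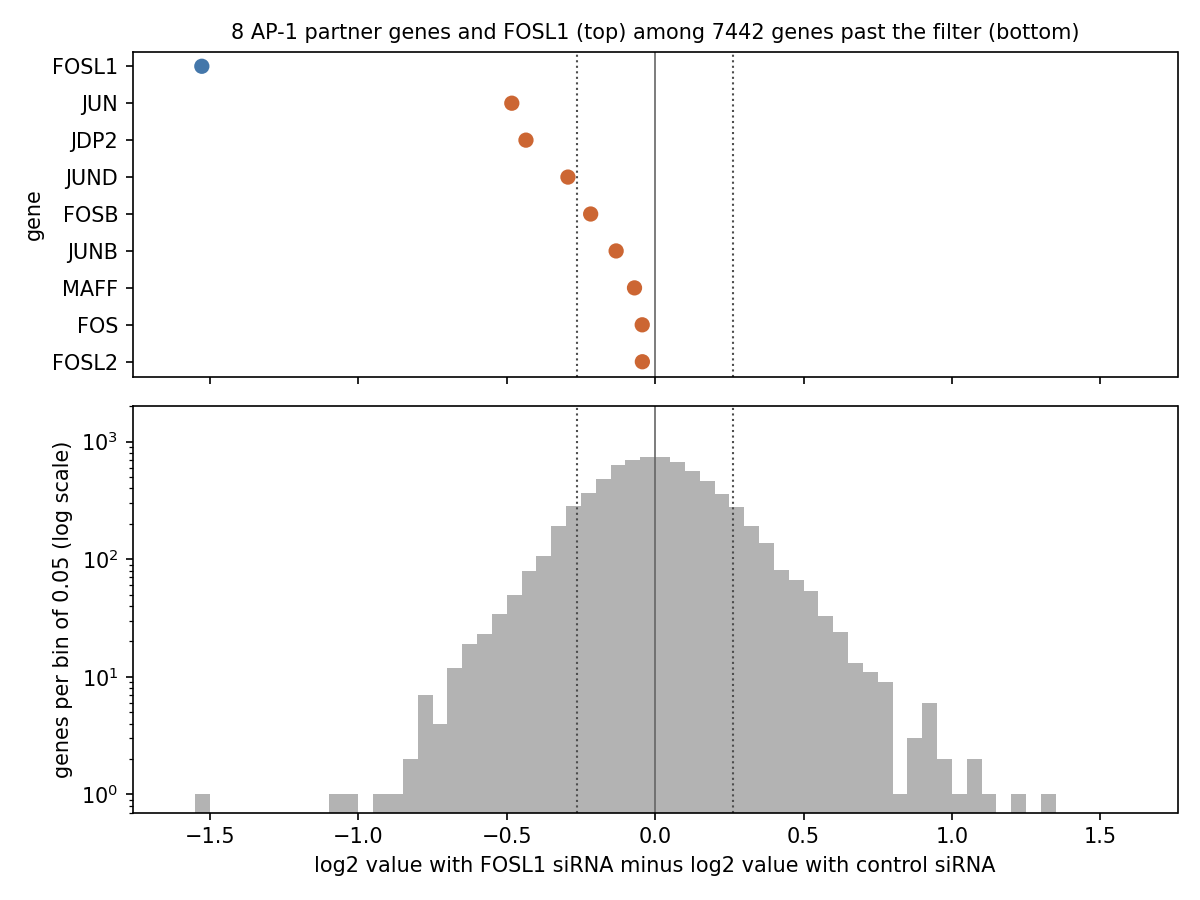
Top, the log2 difference (FOSL1 siRNA minus control siRNA) of the 8 members that passed the filter and of FOSL1; bottom, the same difference for all 7442 genes past the filter, as genes per bin of 0.05 on a log axis, with dotted lines at 1.2-fold. JUN, JDP2 and JUND lie left of the lower dotted line, and FOS and FOSL2 at -0.04 lie over the peak of the histogram.

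FOS and JDP2 are neighbours on chromosome 14, with 0 protein-coding genes between them in the RefSeq table. Their differences, -0.04 and -0.44, lay more than the SD between probe sets apart.

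Gene span moved with the differences over the whole array, and most members are short genes. Among the shortest of 4 equal groups of genes past the filter, 1861 genes of up to 10137 bases with small RNA genes included, the median difference was -0.11 and 20.5% were at least 1.2-fold lower. In the group of longest genes the median was 0.08 and 3.82% were at least 1.2-fold lower. JUN, JUNB, JUND, FOS and FOSB lie in the shortest group, FOSL2 and MAFF in the next, and JDP2 in the one after it. Beside genes of like span (within 0.15 on a log10 scale), the order of the members was different. JDP2, with a span of 47165 bases, then had 1.22% of 1393 genes lower, whereas JUN, with 3257 bases, had 2.11% of 474 genes lower. JUND had 16.7% of genes of like span lower, JUNB 41.9%, FOSB 22.6% and FOS 61.9%. With a loess trend on span removed, JUN was at -0.39 and JDP2 at -0.46, JUND was at -0.20 and no longer 1.2-fold lower, and FOS was at 0.05. The 8 members then had a median of -0.09. Below 0 were 7 of them, against 47% of genes past the filter under the same correction, and 2 were at least 1.2-fold lower, against 7.12%. The 2 were JUN and JDP2, and JDP2 passed the filter through its control value. Why short genes were lower was not tested.

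**Figure D3:**
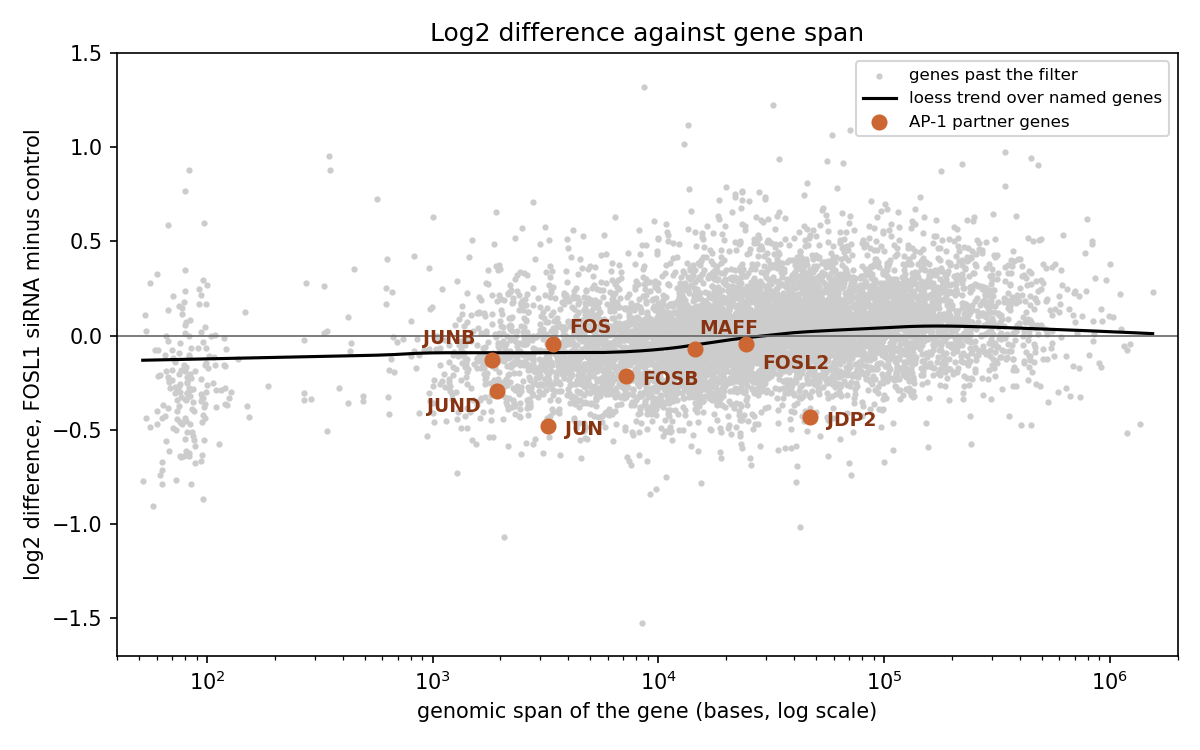
Log2 difference (FOSL1 siRNA minus control siRNA) against genomic span in bases on a log axis, for genes past the filter (grey), with the loess trend over named genes (line) and the 8 members past the filter (orange). The trend runs below 0 for short genes; JUN and JDP2 lie well under it, and JUNB, FOSL2 and MAFF lie close to it.

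The members were also placed among genes of like brightness. The genes were those past the filter and within 0.5 log2 units of the member's mean value. Of these, 1.3% of 1926 genes were lower than JUN, 4.34% of 1843 were lower than JDP2 and 8.49% of 2392 were lower than JUND. JDP2 was thus less far out among equally dim genes than among all genes, and JUN slightly further.

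Without removal of the span trend, the remaining genes of the AP-1 network that passed the filter lay nearer to 0 in the median than the 8 members. The lists were not examined with that trend removed, where the members had a median of -0.09. Of 16 other dimer partners besides FOSL1 (ATF and large and small MAF proteins), 9 had a named probe set, and all 9 passed the filter. Of these, 5 were below 0 and 4 above, and the median was -0.00. None reached 1.2-fold, where 9.78% of all genes past the filter were lower and 11.1% higher. ATF6B, with 10.91 and 10.67, had the lowest difference of these, -0.24, and MAFG, with 8.33 and 8.42, the highest, 0.09; both were named after their values were seen. Of 29 bZIP factors outside AP-1, 19 had a named probe set and 13 passed, with 7 below 0, 6 above and a median of -0.01. DDIT3, the stress factor CHOP, which can also pair with JUN and FOS proteins, was the 1 past 1.2-fold, with 8.018 and 8.533, a difference of 0.51. Its control value lay under the filter of 8.021, so it entered the count through its value with FOSL1 siRNA.

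Genes that act on the members were described in the same way. Of 45 kinases, phosphatases and ligases that act on JUN or FOS proteins, 30 had a named probe set and 27 passed the filter. The 27 had a median of -0.02. At 1.2-fold, 3 were lower and 0 higher, against 9.78% and 11.1% of all genes past the filter. DUSP10, a phosphatase that inactivates the JUN kinases and p38, had 11.61 and 10.83, a difference of -0.78. MAP2K2, the ERK kinase MEK2, had 8.65 and 8.04, a difference of -0.61. MAPK8, which encodes the kinase JNK1, had no named probe set here. Of 25 transcription regulators of JUN and FOS genes, 17 had a named probe set and all 17 passed, with a median of -0.02. Of these 17, 2 were lower and 0 higher at 1.2-fold, against 9.78% and 11.1% of all genes past the filter. SRF, which drives FOS and other immediate early genes through the CArG box, had 10.72 and 10.24. Its difference was -0.49. Whether SRF has a part in the values of FOS or of the other members was not tested.

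Immediate early genes outside AP-1, which are induced together with FOS and JUN by growth factors, lay on both sides. Of 38, 20 had a named probe set and 18 passed the filter, with 9 below and 9 above 0 and a median of -0.04. At 1.2-fold, 4 were lower and 1 was higher, against 9.78% and 11.1% of all genes past the filter. ARC had 8.60 and 8.19, a difference of -0.41, and CCN2, a matricellular protein, had 12.6 and 12.9, a difference of 0.34. Genes described as AP-1 targets also lay on both sides. Of 47, 30 had a named probe set and 25 passed the filter, with a median of -0.08. Of these 25, 9 were at least 1.2-fold lower and 3 higher, against 9.78% and 11.1% of all genes past the filter. The collagenase MMP1, whose promoter holds a classic AP-1 site, had 9.09 and 8.46, and the cytokine LIF had 10.79 and 10.23. CCL2 had 9.53 and 10.19 and CXCL8, the chemokine interleukin 8, had 9.82 and 10.39, both higher with FOSL1 siRNA. These lists hold genes that were measured in the same 2 arrays as the members, and no list was tested.

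**Figure D4:**
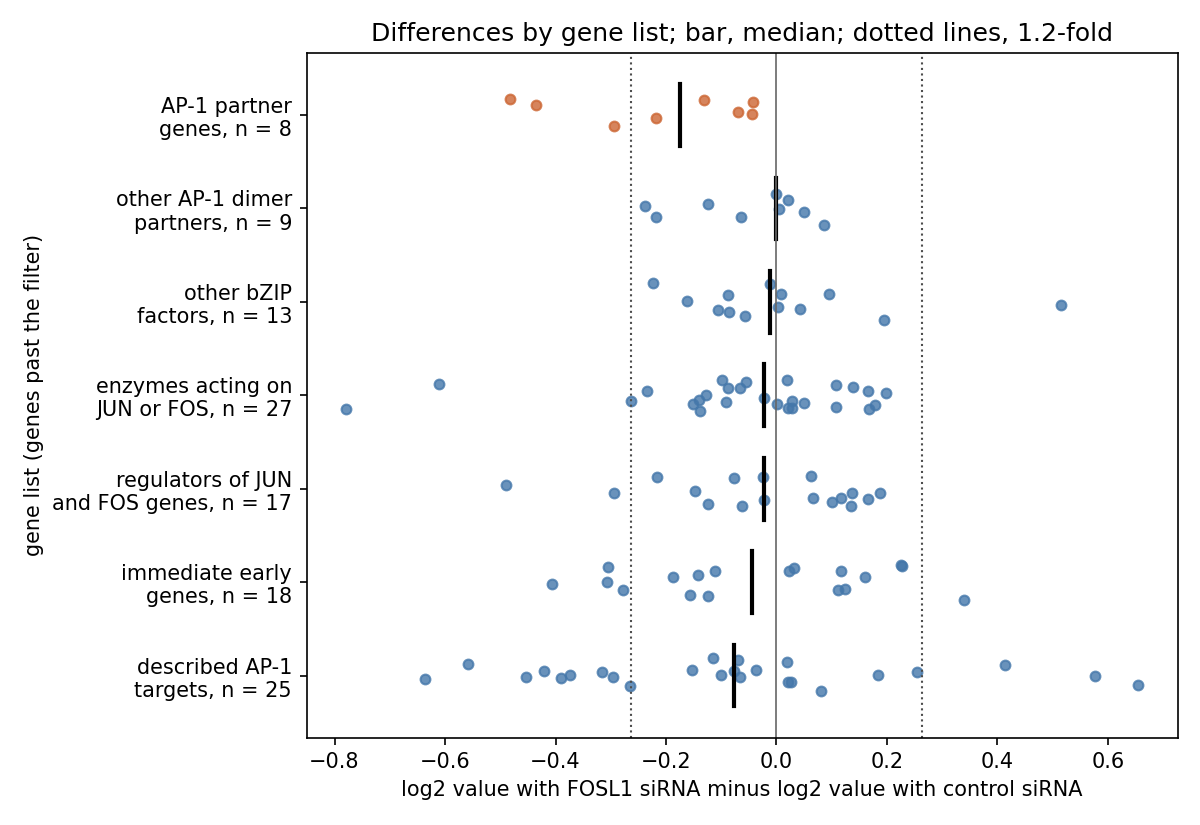
Log2 difference (FOSL1 siRNA minus control siRNA) of each gene past the filter, by gene list, with the list median as a black bar and dotted lines at 1.2-fold; FOSL1 is left out of the other dimer partners. The 8 members all lie left of 0 with a median of -0.17, whereas the other 6 lists straddle 0 with medians between -0.08 and -0.00. The span trend is not removed here, and with it removed the median of the members was -0.09.

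With 2 arrays a gene has a single pair of values, so likeness to a member says only that both values were near. The 3 named genes nearest to JUN were DCAF15 (10.22 and 9.80), KIF3C (10.20 and 9.76) and IRS2 (10.25 and 9.85). The 3 nearest to JDP2 were MIR2467, CACNA1G-AS1 and CLDN19, with differences of -0.45, -0.41 and -0.49.

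Across the ways of processing the values, JUN stayed between -0.49 and -0.39 and JDP2 between -0.46 and -0.41. JUND ranged from -0.30 to -0.20, JUNB from -0.14 to -0.04 and FOSL2 from -0.05 to -0.03. ATF3 ranged from -0.21 to -0.14 and MAFF from -0.07 to -0.02. FOS (from -0.13 to 0.05) and FOSB (from -0.23 to 0.08) crossed 0.

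**Figure D5:**
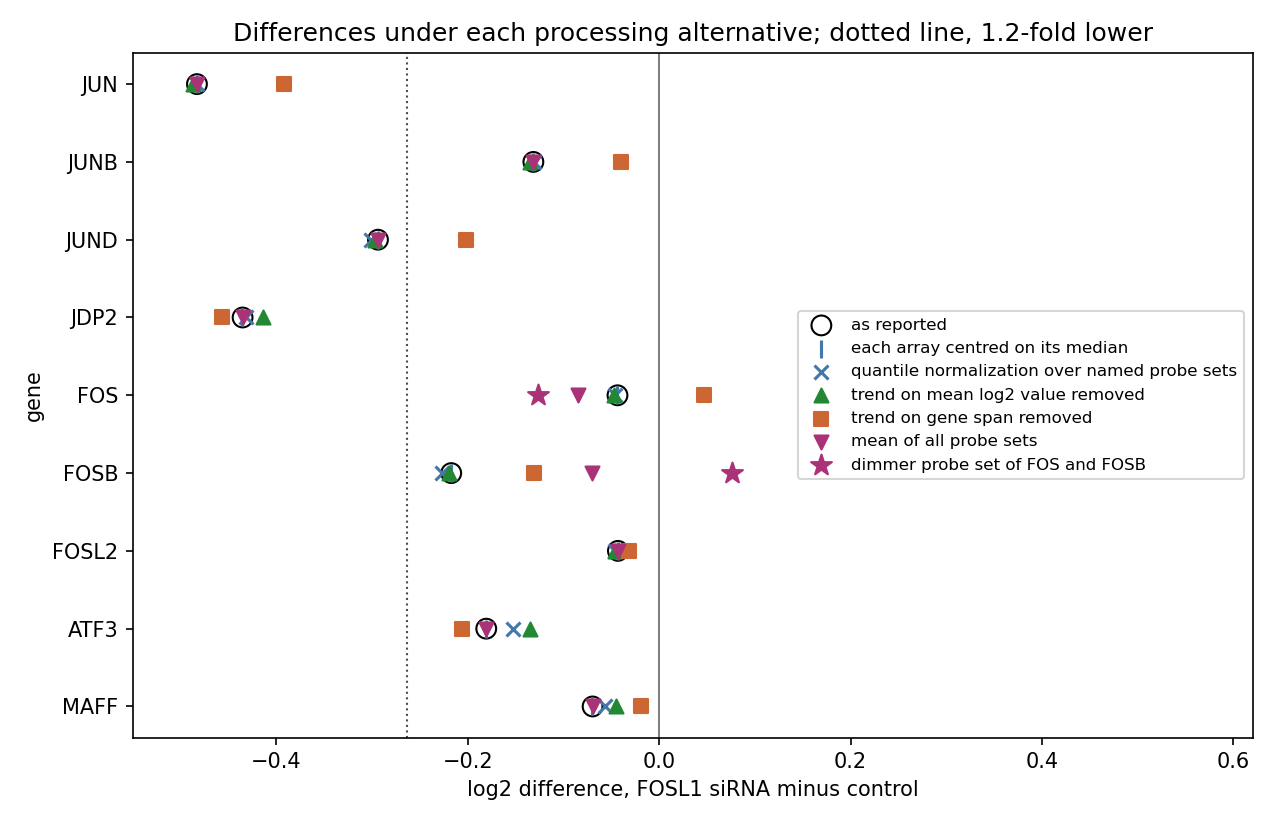
Log2 difference (FOSL1 siRNA minus control siRNA) of each of the 9 genes as reported (open circle) and under each alternative (other marks), with a dotted line at 1.2-fold lower. JUN and JDP2 stay left of the dotted line throughout, JUND crosses it with the span trend removed, and FOS and FOSB each have 1 mark right of 0.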

How the data were processed

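Per the labels' protocols, column-purified total RNA was amplified with a whole-transcript kit (100 ng), labelled with biotin and hybridised to 1 array per condition. The authors deposited a single summarised log2 intensity for each probe set on each array, the log base being inferred from the range of 2.23 to 14.81. Background correction, summarisation, normalization and build: not given in the sources used here. Sorted values of the arrays lay within 0.0301 of each other at every rank, so a shift in RNA per cell cannot be seen.

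Of 53427 probe sets, 16098 carried 1 gene symbol. The brightest stood for a gene in counts, and all 14884 genes matched RefSeq by Entrez ID. The loess fraction was 0.3. Python 3.11.15, pandas 2.3.3 and statsmodels 0.14.6 were used, and the procedures were tested on simulated data. From each gene list, up to 2 genes per direction differing by at least 1.25-fold were named, or else the 1 with the largest difference. The genes studied and the lists were chosen with earlier results of these data known. Alternatives covered scaling, trends, probe sets, filter and fold.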

Additional observations from a re-analysis of the deposited data

How the results depend on the processing

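Of 47 values of single members under alternatives, 46 shifted less than the probe-set SD of 0.169 and 45 were below 0. Some of the 47 could not move: the 7 members with 1 probe set keep their value when the mean of all probe sets is taken. FOSB on its dimmer probe set, an alternative chosen after seeing the data, was at 0.0763. With the filter at the 75th percentile, 3 members passed (all below 0) and 1 of them, JUN, was at least 1.2-fold lower, since fewer genes entered (48.9% and 6.75% of genes past that filter). At 1.5-fold, 0 members were lower. The arrays share their distribution, which leaves scaling little to alter, and such steadiness is no sign that the differences would repeat. ATF3, JDP2, MAFF and the dimmer probe sets lie near the median of named genes, where signal over background limits what a difference can show. No paired analysis was possible because each condition holds 1 array, and for the same reason no array could be left out.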
